A study of Homo sapiens with 8 samples.

Results

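The 31 genes described here build cholesterol and fatty acids or control that synthesis through the sterol regulatory element-binding proteins (SREBPs). They were taken by name from the 58302 genes of a count table, with no cut on a measured value. Earlier results of these data were known when they were chosen. Every one of them had enough counts to be tested. RNA sequencing was done on DLD1 cells, an established human colorectal cancer line, that stably carried lentiviral pCDH constructs for wild-type TRMT6 and TRMT61A (OE-WT) or the empty vector (CTRL). TRMT6 and TRMT61A are the subunits of a methyltransferase that places m1A on tRNA. The labels give 2 libraries per group, cultured in duplicate, and the comparison of OE-WT with CTRL asks which transcripts differ when the enzyme is overexpressed. Both groups grew in the same serum-containing medium, were washed in cycloheximide and were lysed, and total RNA came from the cleared lysate. Whether each cell pool was 1 clone, and which promoter drove the constructs, is not given in the sources used here. A catalytically inactive construct was not analysed here.

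Cells make cholesterol from acetyl-CoA, first through soluble enzymes that build mevalonate and isoprenoid units, then through enzymes of the endoplasmic reticulum (ER) that form squalene, close it into lanosterol and trim lanosterol to cholesterol. Fatty acid synthesis draws on the same acetyl-CoA. SREBPs are transcription factors made as precursors in the ER membrane. SCAP carries them to the Golgi for cleavage when sterols are low, and INSIG proteins hold SCAP in the ER when sterols are high. Cleaved SREBP1 is best known for fatty acid genes and cleaved SREBP2 for cholesterol genes, and the intestinal epithelium both makes and absorbs cholesterol.

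The OE-WT libraries held 10460284 and 10327498 counts in total, and those of CTRL cells 12379671 and 12063433. The 31 genes took from 0.501% to 0.571% of them. Levels are given as CPM, a gene's counts rescaled to the same library size in every library, and are not raw counts. A gene with 0 counts could still have up to 3 counts, from 0.233 to 0.302 CPM, a limit that covers counting error only. TRMT6 had 210.7 and 180.9 CPM in OE-WT cells and 52.6 and 55.4 in CTRL cells, a log2 fold change of 1.86 (standard error, SE, 0.08; adjusted p = 8.5e-13, edgeR's quasi-likelihood test). TRMT61A had 137.5 and 130.4 CPM against 58.9 and 56.8, a log2 fold change of 1.21 (SE 0.07, adjusted p = 1.9e-10, same test). Of 9 colorectal epithelial markers, 9 were tested, 2 rose and 3 fell. Their summed level was 12109 and 12452 CPM in OE-WT cells and 11077 and 10875 in CTRL cells. KRT20, a keratin of differentiated colonocytes, fell most, with 8.36 and 9.93 CPM in OE-WT cells against 27.1 and 25.3 (log2 fold change -1.52, adjusted p = 7e-08), CDH1 and KRT19 fell by 0.29 and 0.19 on the log2 scale, and KRT8 and KRT18 rose by 0.25 and 0.30. EPCAM, a surface marker of epithelial cells, was between 461 and 545 CPM, while the villus genes VIL1 and LGALS4 did not pass 4.53 CPM in any library. The 9 markers of fibroblasts, immune cells and endothelium summed to 3.24 to 4.90 CPM per library, with COL1A2, DCN and CD3E at 0 in all 4 libraries. COL1A1, PDGFRB and VWF had counts in every library. COL1A1 had 22 and 18 counts in OE-WT libraries and 19 and 19 in CTRL libraries. VWF had 5 and 6 against 30 and 14, a log2 fold change of -1.65 (adjusted p = 0.018, edgeR's quasi-likelihood test). The part of other cells in the results was not tested.

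Among the 31 genes, 3 rose and 5 fell in OE-WT cells when an adjusted p below 0.05 was required (edgeR's quasi-likelihood test, Benjamini-Hochberg adjustment over the 14133 genes tested). HMGCS1, IDI1 and ACAT2 of the mevalonate arm were the 3 that rose, and SREBF1, SCAP, SQLE, FADS2 and TM7SF2 were the 5 that fell. The 3 make 9.68% of the 31, where 9.44% of all tested genes were called higher, and the 5 make 16.1%, where 11.6% of all tested genes were called lower. In this fit both shares lay near those of all genes. By the DESeq2 Wald test the same 3 rose, SREBF1 and SCAP fell, and no other of the 31 was called. Over all genes that test called 522 higher and 855 lower, against 1334 and 1642 in the reported fit. How the shares compare therefore depends on the fit. Log2 fold changes of the 31 ran from -0.41 to 0.55 with a median of 0.02, against a median of 0.01 over all genes. None of the 31 passed the thresholds of the study's methods, an unadjusted p below 0.05 with a log2 fold change beyond 1 in size, which 0.899% of all genes passed as higher and 2.25% as lower. At an unadjusted p below 0.05 alone, 8 of the 31 were higher, where 16.4% of all genes were, and 7 were lower, where 17.5% were. The OE-WT libraries lay wholly above the CTRL libraries for 12 of the 31 genes and wholly below for 9, and the groups overlapped for 10. Over all tested genes the shares above and below were 29.9% and 30.2%. With 2 libraries in each group, the smallest two-sided p of an exact permutation would be 0.333, so every p-value comes from the model fitted across genes and measures the spread between these libraries. In bulk RNA, fewer cells that express a gene and less of its RNA per cell cannot be told apart.

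**Figure D1:**
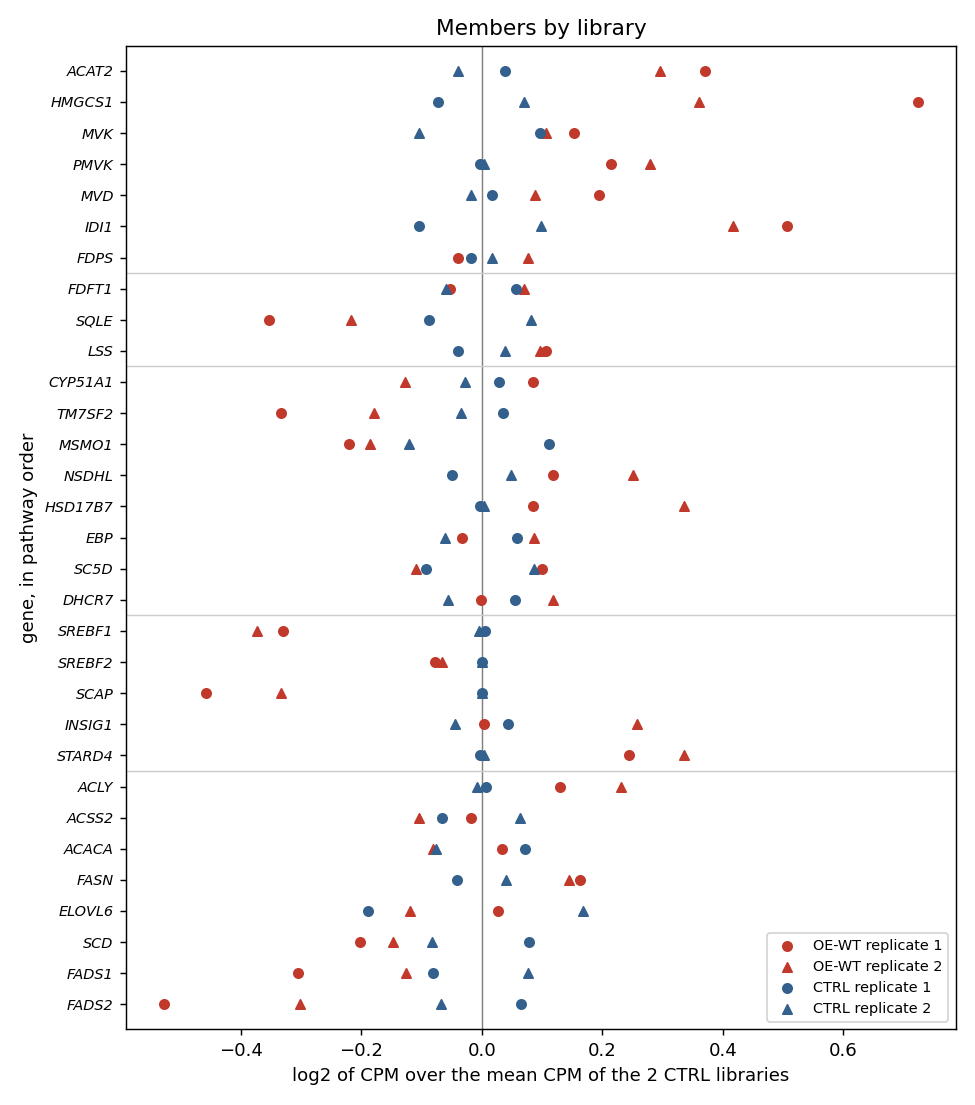
Level of each gene in each library, as log2 of its CPM over the mean CPM of the 2 CTRL libraries (horizontal axis), with the genes in pathway order (vertical axis) and each point 1 library. OE-WT points for HMGCS1, IDI1 and ACAT2 lie to the right of both CTRL points, and those for SREBF1, SCAP, SQLE, TM7SF2 and FADS2 to the left.

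The mevalonate arm held the 3 genes that rose, and 0 of its 7 genes fell, also at an unadjusted p below 0.05. These 3 make 42.9% of the arm, where 9.44% of all tested genes were called higher and 11.6% lower. With so few genes, no pattern particular to the arm is read from these counts. HMGCS1 (ENSG00000112972, GRCh38 chromosome 5, 43287470 to 43313512, minus strand) encodes the cytosolic synthase that joins acetyl-CoA to acetoacetyl-CoA to form HMG-CoA. Its level was 110.2 and 85.7 CPM in OE-WT cells and 63.4 and 70.1 in CTRL cells. Both OE-WT values were the higher ones, and they differed more from each other than the CTRL values did. The mean was 46.7% higher, a log2 fold change of 0.55 (SE 0.09, adjusted p = 0.00019, edgeR's quasi-likelihood test). The size depended on the OE-WT library, since the log2 fold change was 0.36 without OE-WT replicate 1 and 0.71 without OE-WT replicate 2, and HMGCS1 was called higher in each of these fits.

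IDI1 (ENSG00000067064, chromosome 10, 1039152 to 1049119, minus strand) encodes the isomerase that interconverts the 2 isoprene building blocks. It had 73.5 and 69.1 CPM in OE-WT cells and 48.1 and 55.4 in CTRL cells. The groups did not overlap, and the log2 fold change was 0.46 (SE 0.08, adjusted p = 0.00031, edgeR's quasi-likelihood test). ACAT2 (ENSG00000120437, chromosome 6, 159762045 to 159779112, plus strand) encodes the cytosolic thiolase that makes acetoacetyl-CoA, the step before HMGCS1. Its 89.9 and 85.3 CPM in OE-WT cells stood above 71.4 and 67.6 in CTRL cells, a log2 fold change of 0.33 (SE 0.07, adjusted p = 0.0020, same test). HMGCS1, IDI1 and ACAT2 were called higher in each of 11 alternatives, in which the log2 fold change of IDI1 ran from 0.36 to 0.57 and that of ACAT2 from 0.24 to 0.37.

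The other 4 genes of the arm did not pass the test. The kinases MVK and PMVK, which phosphorylate mevalonate in turn, had log2 fold changes of 0.13 (adjusted p = 0.43) and 0.25 (adjusted p = 0.30), and PMVK rested on 96 to 107 counts per library. The decarboxylase MVD had 0.14 (adjusted p = 0.26). FDPS, the farnesyl diphosphate synthase at the end of the arm, had 184.2 and 199.5 CPM in OE-WT cells and 187.0 and 191.6 in CTRL cells, a log2 fold change of 0.02 (adjusted p = 0.87). The log2 fold changes of all 7 genes of the arm were above 0, except that FDPS was below 0 with scaling by library size only (-0.07), with no filter beyond 1 count (-8.2e-05) and without OE-WT replicate 2 (-0.05). Summed over the arm, the level was 538 and 517 CPM in OE-WT cells and 443 and 453 in CTRL cells, a ratio of the means of 1.18. The sums did not overlap between groups, and the gap between group means was larger than the SD of either group (15.4 and 7.44 CPM, n = 2). Among single tested genes, the OE-WT libraries lay wholly above the CTRL libraries for 29.9% and wholly below for 30.2%. Groups that lie apart are thus common with 2 libraries each, and the sums were not tested.

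Several of these genes share exon bases with a gene on the opposite strand. The kit marks strand per the labels, and whether the counting used strand is not given in the sources used here, so reads of the partners cannot be told apart. The long noncoding RNA gene ENSG00000261604 covers 37.7% of the HMGCS1 exon bases, with a log2 fold change of 0.59 (adjusted p = 0.011). IDI2-AS1 covers 14.97% of those of IDI1, with 0.81 (adjusted p = 0.0018). TCP1, a chaperonin subunit gene, covers 17.2% of those of ACAT2, with 0.24 (adjusted p = 0.028). The partners of the 3 genes that rose were higher too by edgeR's quasi-likelihood test, and their part in the result was not tested. For FDPS, RUSC1-AS1 covers 18.6% of exon bases and had a log2 fold change of 0.04 (adjusted p = 0.71).

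Promoter windows from RefSeq on GRCh38.p14, from 250 bases before to 50 after a transcript start, were found for 27 of the 31 genes and not for ACAT2, FASN, FDFT1 and SQLE. Windows of HMGCS1 and IDI1 are shown as those of the genes with the largest increases, at the transcript start used for gene length (chr5:43313363-43313662 and chr10:1049070-1049369, both minus strand, 5′ to 3′ in the direction of the gene). Capitals mark the letters CCAAT, the box that NF-Y binds, which here read ATTGG because the match is on the opposite strand. They begin at -155 and -100 from the HMGCS1 start and at -215 and -117 from the IDI1 start.
HMGCS1: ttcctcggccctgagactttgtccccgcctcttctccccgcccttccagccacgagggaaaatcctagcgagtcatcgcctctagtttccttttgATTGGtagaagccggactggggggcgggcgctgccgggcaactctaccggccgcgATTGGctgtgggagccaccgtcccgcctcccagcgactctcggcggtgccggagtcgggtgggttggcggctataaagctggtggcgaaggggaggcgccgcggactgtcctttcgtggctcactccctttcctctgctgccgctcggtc
IDI1: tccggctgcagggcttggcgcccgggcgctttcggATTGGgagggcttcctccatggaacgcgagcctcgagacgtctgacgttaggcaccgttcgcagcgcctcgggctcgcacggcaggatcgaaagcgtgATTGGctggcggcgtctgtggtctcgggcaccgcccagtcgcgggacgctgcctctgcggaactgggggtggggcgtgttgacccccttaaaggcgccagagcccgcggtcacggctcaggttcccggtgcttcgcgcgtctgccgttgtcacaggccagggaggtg
Of the 27 genes, 21 (77.8%) had CCAAT on either strand in at least 1 window, against 39.7% of 27305 genes. The letters GGGCGG, bound by SP1, were in the windows of 26 (96.3%) against 48.3%, and the E-box CACGTG in those of 4 (14.8%) against 8.78%. These are matches of letters, each motif counted by itself also where matches overlap, and not shown sites of binding. The 27305 genes are all those with a window, whether or not they were tested here, and some genes have several windows. Whether the differences in share are particular to this pathway was not tested.

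Between farnesyl diphosphate and cholesterol, 2 of 11 genes fell and 0 rose, where 11.6% of all tested genes were called lower and 9.44% higher. At an unadjusted p below 0.05 another 1 was lower (MSMO1) and 2 were higher (NSDHL and HSD17B7), against 17.5% and 16.4% of all genes. No pattern particular to these genes is read from these counts. SQLE (ENSG00000104549, chromosome 8, 124998497 to 125022283, plus strand) encodes squalene epoxidase, a rate-limiting enzyme of the late pathway. It had 88.6 and 97.3 CPM in OE-WT cells and 106.5 and 119.7 in CTRL cells. The groups did not overlap, and the level fell by 17.8%, a log2 fold change of -0.28 (SE 0.08, adjusted p = 0.0096, edgeR's quasi-likelihood test). The call was lost without OE-WT replicate 1 (-0.22, adjusted p = 0.092), without CTRL replicate 2 (-0.20, adjusted p = 0.12) and by the DESeq2 Wald test (adjusted p = 0.064). Its neighbours in the pathway, the squalene synthase gene FDFT1 and the lanosterol synthase gene LSS, had log2 fold changes of 0.01 (adjusted p = 0.94) and 0.10 (adjusted p = 0.38).

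TM7SF2 (ENSG00000149809, chromosome 11, 65111845 to 65116384, plus strand) encodes a sterol reductase that acts early after lanosterol. Its level was 49.7 and 55.2 CPM in OE-WT cells and 64.1 and 61.0 in CTRL cells, a log2 fold change of -0.25 (SE 0.08, adjusted p = 0.026, edgeR's quasi-likelihood test). This was the least stable of the 8 calls, since it was lost with the replicate block (adjusted p = 0.050), by the DESeq2 Wald test (adjusted p = 0.18), without OE-WT replicate 1 (-0.18) and without CTRL replicate 1 (-0.22), and since removal of the GC trend took it to -0.07 (adjusted p = 0.60). LBR, a lamin receptor with the same reductase activity, had a log2 fold change of 0.05 (adjusted p = 0.69). Per kilobase of transcript, TM7SF2 was at 33.2 ± 2.49 CPM in OE-WT and 39.6 ± 1.35 in CTRL cells, and LBR at 19.5 ± 1.62 and 18.8 ± 0.143 (SD, n = 2).

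The other 7 genes from lanosterol to cholesterol were not called. MSMO1, the methyl oxidase that starts removal of the methyl groups, had 343.9 and 352.4 CPM against 433.2 and 368.7, a log2 fold change of -0.20 just outside the threshold (adjusted p = 0.051, edgeR's quasi-likelihood test). CTRL replicate 1 stood above the other 3 libraries, and the value was -0.08 without it and -0.32 (adjusted p = 0.0018) without CTRL replicate 2. NSDHL and HSD17B7, which finish the demethylation, had 0.19 (adjusted p = 0.11) and 0.22 (adjusted p = 0.086). A near-identical pseudogene, HSD17B7P2, took 21 to 35 counts per library and HSD17B7 470 to 573, so the split between them is uncertain. HSD17B7 was called higher without OE-WT replicate 1 (0.34, adjusted p = 0.015). EBP, SC5D and DHCR7, the isomerase, desaturase and reductase of the last steps, had log2 fold changes of 0.03, -0.001 and 0.06, and for each of them the groups overlapped. CYP51A1, the lanosterol demethylase, had 54 to 76 counts per library and a log2 fold change of -0.02 (SE 0.20).

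Among the regulators, SREBF1 and SCAP fell while SREBF2 and INSIG1 did not pass the test. SREBF1 (ENSG00000072310, chromosome 17, 17810399 to 17837002, minus strand) encodes SREBP1. It had 200.6 and 194.7 CPM in OE-WT cells and 253.0 and 251.5 in CTRL cells. The libraries of each group lay close together and far from those of the other group, and the level fell by 21.7%, a log2 fold change of -0.35 (SE 0.06, adjusted p = 0.00040, edgeR's quasi-likelihood test). With the GC trend removed it was -0.17 (adjusted p = 0.065), the only one of 11 alternatives in which SREBF1 was not called. RAI1 on the opposite strand covers 6.75% of the SREBF1 exon bases and had a log2 fold change of -0.52 (adjusted p = 0.00024), and its part in the result was not tested.

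SCAP (ENSG00000114650, chromosome 3, 47413681 to 47477126, minus strand) encodes the SREBP escort. Its level was 129.1 and 140.7 CPM in OE-WT cells and 177.4 and 177.3 in CTRL cells. The level fell by 23.9%, a log2 fold change of -0.39 (SE 0.07, adjusted p = 0.00023, edgeR's quasi-likelihood test). SCAP was called lower in each of 11 alternatives, with the value closest to 0 on removal of the GC trend (-0.24, adjusted p = 0.016). SREBF2 (ENSG00000198911, chromosome 22, 41833105 to 41907306, plus strand), which encodes SREBP2, had 361.0 and 363.9 CPM in OE-WT cells against 381.0 and 380.6. The groups did not overlap, yet the log2 fold change of -0.07 (SE 0.06, adjusted p = 0.46) was near its standard error, and it was 0.02 with the GC trend removed. Per kilobase of transcript, SREBF1 was at 40.3 ± 0.850 CPM in OE-WT and 51.5 ± 0.222 in CTRL cells, and SREBF2 at means of 69.2 and 72.7, with SDs of at most 0.850 for all 4 means (n = 2).

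INSIG1 (ENSG00000186480, chromosome 7, 155297776 to 155310235, plus strand), the ER anchor of SCAP and itself an SREBP target, had 120.4 and 143.6 CPM in OE-WT cells and 123.7 and 116.5 in CTRL cells. OE-WT replicate 2 was the high library, the groups overlapped, and the log2 fold change was 0.14 (SE 0.08, adjusted p = 0.22, edgeR's quasi-likelihood test). Without OE-WT replicate 1 it was 0.26 and called higher (adjusted p = 0.024), and without OE-WT replicate 2 it was -0.01. STARD4, a soluble carrier that moves cholesterol between membranes, had 21.96 and 23.4 CPM in OE-WT cells and 18.5 and 18.6 in CTRL cells, a log2 fold change of 0.29 (SE 0.11, adjusted p = 0.071). The summed level of these 5 genes was 833 and 866 CPM in OE-WT cells and 954 and 944 in CTRL cells, a ratio of the means of 0.895. The sums of the groups did not overlap, and they were not tested. Over single tested genes, the OE-WT libraries lay wholly below the CTRL libraries for 30.2%.

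The sterol regulatory element was searched as TCACNCCAC on both strands. SREBF2 was the 1 gene of 27 (3.70%) with these letters in a window, where 1.39% of 27305 genes had them, and no match in the other windows says only that these letters are not there. The SREBF2 window (chr22:41832855-41833154, plus strand) holds the match in capitals, which begins at -133 from the start. Windows of SREBF1 (chr17:17836937-17837236, minus strand) and SCAP (chr3:47475892-47476191, minus strand) are shown beside it because both genes fell. They hold neither TCACNCCAC nor CCAAT, but they hold GGGCGG 3 and 4 times. Among the other genes that fell, TM7SF2 and FADS2 had CCAAT in a window, and SQLE had no window. The windows of HMGCS1, IDI1, SREBF1 and SCAP were chosen after their values were seen.
SREBF2: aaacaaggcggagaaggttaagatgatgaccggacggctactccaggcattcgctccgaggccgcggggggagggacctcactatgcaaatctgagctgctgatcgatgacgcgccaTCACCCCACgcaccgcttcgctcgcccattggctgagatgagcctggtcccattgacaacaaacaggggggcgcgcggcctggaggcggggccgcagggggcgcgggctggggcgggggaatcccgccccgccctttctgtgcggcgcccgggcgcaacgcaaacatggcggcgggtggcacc
SREBF1: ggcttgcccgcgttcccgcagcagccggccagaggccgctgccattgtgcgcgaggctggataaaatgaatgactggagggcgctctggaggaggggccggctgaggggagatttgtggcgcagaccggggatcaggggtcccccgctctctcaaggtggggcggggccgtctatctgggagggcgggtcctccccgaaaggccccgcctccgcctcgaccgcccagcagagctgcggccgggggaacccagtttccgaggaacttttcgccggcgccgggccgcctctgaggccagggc
SCAP: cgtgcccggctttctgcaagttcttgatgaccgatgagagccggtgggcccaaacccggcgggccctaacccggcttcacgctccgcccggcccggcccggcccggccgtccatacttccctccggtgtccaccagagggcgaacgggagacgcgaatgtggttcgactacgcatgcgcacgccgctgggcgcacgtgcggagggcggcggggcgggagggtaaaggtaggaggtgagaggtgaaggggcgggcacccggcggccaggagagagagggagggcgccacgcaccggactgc

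Of the 8 fatty acid genes, 1 fell (12.5%) and 0 rose, where 11.6% of all tested genes were called lower and 9.44% higher. The share that fell lay near that of all genes. At an unadjusted p below 0.05 SCD was lower too and ACLY and FASN were higher, against 17.5% and 16.4% of all genes. FADS2 (ENSG00000134824, chromosome 11, 61792980 to 61867354, plus strand) encodes the desaturase that starts the synthesis of long polyunsaturated fatty acids. It had 23.8 and 27.8 CPM in OE-WT cells and 35.8 and 32.7 in CTRL cells. The groups did not overlap, and the level fell by 24.7%, a log2 fold change of -0.41 (SE 0.10, adjusted p = 0.0063, edgeR's quasi-likelihood test). The call was lost without OE-WT replicate 1 (-0.30, adjusted p = 0.095) and by the DESeq2 Wald test (adjusted p = 0.064). The partner desaturase FADS1, on the opposite strand and sharing 4.64% of the FADS2 exon bases, had 68 to 110 counts per library and a log2 fold change of -0.21 (SE 0.17, adjusted p = 0.43). FEN1, a nuclease gene that shares 49 exon bases with FADS2 on the same strand, had 0.33 (adjusted p = 0.0025), the opposite direction.

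The enzymes that make and lengthen saturated fatty acids were not called. ACLY, which releases acetyl-CoA from citrate, had 241.0 and 258.6 CPM in OE-WT cells and 221.4 and 219.1 in CTRL cells, a log2 fold change of 0.18 just outside the threshold (adjusted p = 0.051, edgeR's quasi-likelihood test). FASN, the fatty acid synthase, had 1097 and 1083 CPM against 951.4 and 1007. Its OE-WT libraries were above its CTRL libraries, with a log2 fold change of 0.15 (SE 0.07, adjusted p = 0.10). SCD, the desaturase that makes monounsaturated fatty acids, had 912.8 and 948.4 CPM against 1109 and 991.1, a log2 fold change of -0.17 (SE 0.07, adjusted p = 0.082) with the groups apart in the other direction. ACSS2, ACACA and ELOVL6, which activate acetate, form malonyl-CoA and elongate palmitate, had log2 fold changes of -0.06, -0.02 and -0.04, each within its standard error, and the groups overlapped. Summed over the 8 genes the level was 2380 and 2417 CPM in OE-WT cells and 2424 and 2357 in CTRL cells, a ratio of 1.00. The sum over all 31 genes was 5280 and 5428 CPM against 5497 and 5324, a ratio of 0.990 within the SDs of 104 and 123 CPM (n = 2).

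Levels of different genes were set side by side only per kilobase of transcript. On that scale SCD had the highest group means, with 177 ± 4.79 CPM per kb in OE-WT and 200 ± 15.9 in CTRL cells (SD, n = 2), but its CTRL libraries, at 211 and 189, overlapped those of MSMO1, at 195 and 166. MSMO1, EBP, FDFT1, DHCR7, FDPS and FASN followed, from 116 to 180 CPM per kb in group means, and neighbours in this order overlapped between libraries in at least 1 group, apart from FDPS and FASN. ELOVL6, FADS1 and CYP51A1 were the lowest, with group means from 1.39 to 1.94. Within the mevalonate arm FDPS had 135 and 134 CPM per kb, against 18.3 and 12.5 for HMGCS1, and MVK (9.10 and 8.31) and PMVK (9.88 and 8.32) were lower still.

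**Figure D2:**
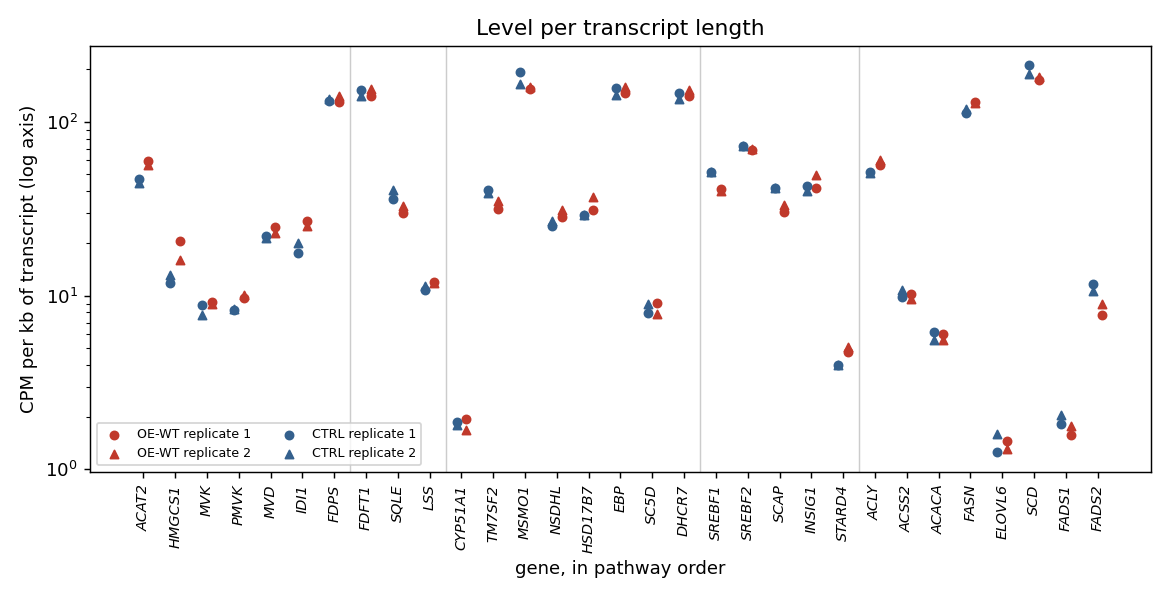
Level of each gene in each library as CPM per kb of its transcript (vertical log axis), with the genes in pathway order (horizontal axis) and each point 1 library. Levels run from under 2 CPM per kb for CYP51A1, ELOVL6 and FADS1 in most libraries to about 200 for SCD, and the gap between groups is small beside the range among genes.

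The 31 genes were also divided by whether their proteins are soluble or are made in the ER membrane. SREBF1 and SREBF2 were placed with the ER membrane by the precursors they encode. Of the 12 soluble proteins, 3 genes rose and 0 fell, with a median log2 fold change of 0.17. Of the 19 proteins of the ER membrane, 0 rose and 5 fell, with a median of -0.04, and at an unadjusted p below 0.05 they numbered 2 and 7. The soluble group then had 6 higher and 0 lower. Over all tested genes 9.44% were higher and 11.6% lower at the adjusted threshold, and 16.4% and 17.5% at the unadjusted one, and with so few genes in each group no pattern particular to either is read from these counts. The division follows the pathway in part, since the mevalonate arm is soluble, and the comparison of these medians was not tested. The alternative fits reuse the same libraries, so they are no independent check of the division. In 10 of 11 alternatives the genes called higher were all soluble. The exception was the fit without OE-WT replicate 1, where HSD17B7 and INSIG1 were called higher as well. No gene for a soluble protein was called lower in any of the 11.

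Fold changes over all genes moved with the GC content of the transcript. The median log2 fold change was 0.11 in the GC-poorest of 3 equal groups of genes, 0.03 in the middle group and -0.12 in the GC-richest. HMGCS1 and IDI1 were GC-poor, at 39.0% and 41.1%, and ACAT2 was at 42.2%. SREBF1, SCAP and TM7SF2 were GC-rich, at 63.2%, 61.7% and 64.2%. With a smooth GC trend removed from each library, HMGCS1 (0.43, adjusted p = 0.0011), IDI1 (0.36, adjusted p = 0.0021), ACAT2 (0.24, adjusted p = 0.027), SQLE (-0.33, adjusted p = 0.0038), FADS2 (-0.30, adjusted p = 0.037) and SCAP stayed called in edgeR's quasi-likelihood test, and SREBF1 and TM7SF2 did not. FASN (65.3% GC, 0.35, adjusted p = 0.00082), MVD (63.7% GC, 0.32, adjusted p = 0.0097) and ACLY (0.22, adjusted p = 0.024) were then called higher, and MSMO1 (-0.33, adjusted p = 0.0089) and SCD (-0.23, adjusted p = 0.030) lower. That made 6 called higher and 5 lower, with a median of 0.06 over the 31 genes. Over the 14133 tested genes the same fit called 1390 higher and 1454 lower, with a median of 0.01.

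**Figure D3:**
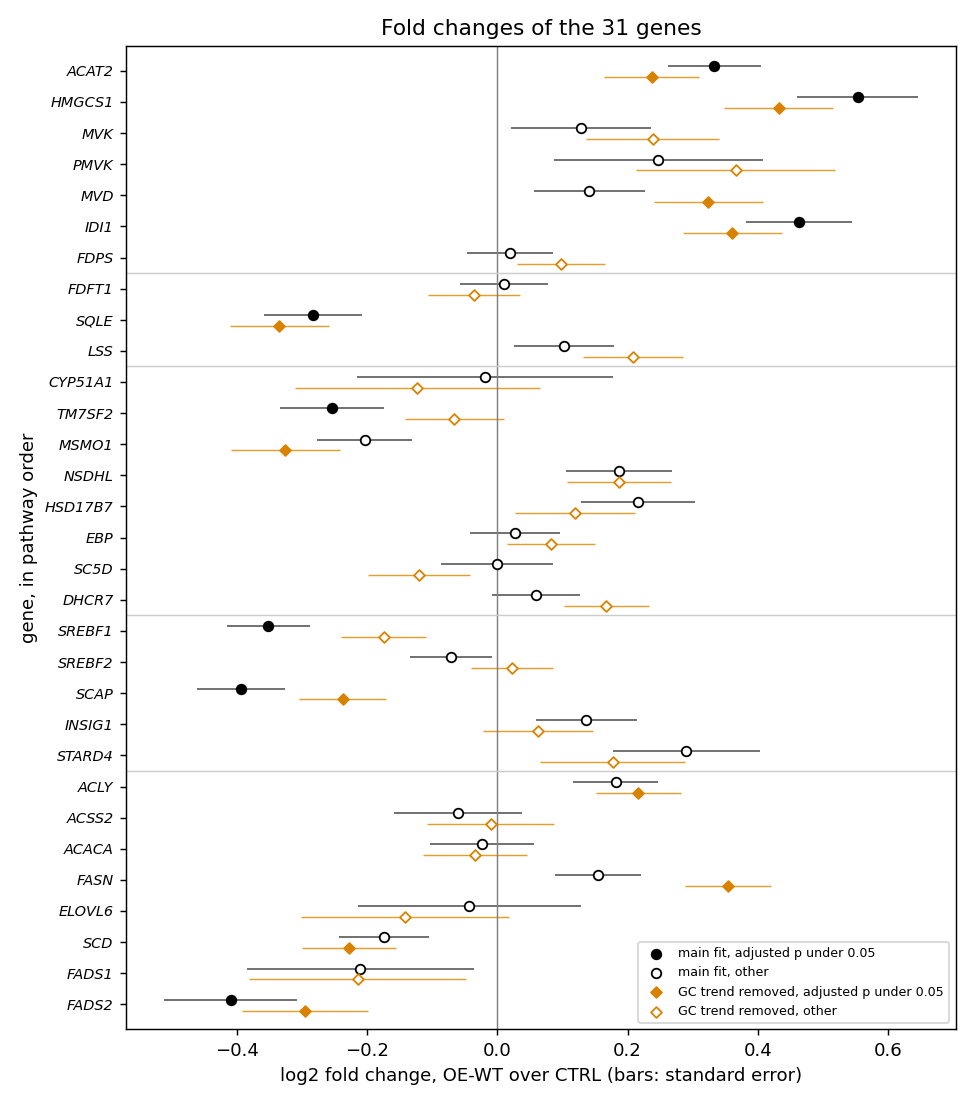
Log2 fold change of OE-WT over CTRL for each of the 31 genes (horizontal axis) in pathway order (vertical axis), from the reported fit (black circles) and with the GC trend removed (orange diamonds). Bars are standard errors and filled symbols have an adjusted p under 0.05. HMGCS1, IDI1 and ACAT2 are filled to the right of 0 in both, and SCAP, SQLE and FADS2 to the left in both.

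Around the 31 genes, 78 further genes of sterol and lipid handling were listed in 6 groups, and 77 of them were tested. At an adjusted p below 0.05, 9 rose (11.7%) and 24 fell (31.2%), where 9.44% of all tested genes were called higher and 11.6% lower. The share that rose lay near that of all genes. The median log2 fold change was -0.07, and 3 passed the study's thresholds as lower, where 2.25% of all genes did. By the DESeq2 Wald test 2 rose and 9 fell, where 522 and 855 of the 14133 genes did. The genes called lower lay mainly in sterol transport (69.2% of its tested genes) and lipid assembly (42.9%). In the other lists from 0% to 23.1% were called lower.

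Of the 13 tested genes of sterol transport and the LXR sterol sensors, 9 fell and 1 rose, with a median log2 fold change of -0.30. NPC2 and NPC1, which carry cholesterol out of lysosomes, had -0.71 (SE 0.07, adjusted p = 3.6e-07, edgeR's quasi-likelihood test) and -0.65 (SE 0.07, adjusted p = 8.7e-07). SCARB1, the HDL receptor, had -0.50 (adjusted p = 1.5e-05), and STARD3, a sterol carrier of late endosomes, had -0.46 (adjusted p = 0.00027). ABCG1, a sterol exporter, had -1.87 but only 3 and 6 counts in OE-WT libraries against 23 and 19. TMEM97, an SREBP target that binds NPC1, was the 1 gene that rose (0.35, adjusted p = 0.0014) and was named after its value was seen. ABCA1 had at most 1 count per library and was not tested.

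Of the 21 genes of elongation and lipid assembly, 9 fell and 2 rose, with a median of -0.19. DGAT2 and DGAT1, which make triglyceride, had -1.05 (adjusted p = 0.00023) and -0.55 (adjusted p = 0.00032) by edgeR's quasi-likelihood test. DGAT1 was at -0.34 without OE-WT replicate 1 and -0.80 without OE-WT replicate 2, and was not called by the DESeq2 Wald test (adjusted p = 0.086). The elongases ELOVL5 and ELOVL7 had -1.35 (10 to 43 counts per library) and -0.52 (adjusted p = 0.012). GPAM, which starts glycerolipid synthesis, rose (0.59, adjusted p = 0.025), with 65 to 87 counts per library and a call that was lost in 6 of 11 alternatives. MID1IP1, an activator of acetyl-CoA carboxylase, had 0.22 (adjusted p = 0.027) and was named after its value was seen.

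Of the 13 genes of SREBP processing and its cofactors, 3 fell (23.1%) and 1 rose (7.69%), where 11.6% and 9.44% of all genes did. The median was -0.02. INSIG2, the second INSIG protein, had 8.16 and 8.84 CPM in OE-WT cells and 13.6 and 12.6 in CTRL cells, a log2 fold change of -0.62 (SE 0.15, adjusted p = 0.0059, edgeR's quasi-likelihood test). ERLIN2 and MARCHF6, of ER protein degradation, had -0.24 (adjusted p = 0.016) and -0.20 (adjusted p = 0.034), and SP1 had 0.26 (adjusted p = 0.018), which was lost with the GC trend removed (0.19, adjusted p = 0.10). Among the 12 genes that use isoprenoids for products other than sterols, PDSS1, a coenzyme Q enzyme, rose (0.57, adjusted p = 0.013, and 0.38 without OE-WT replicate 1) and 0 fell, with a median of -0.05. Of 6 redox partners and parallel sterol enzymes, POR, the electron donor of CYP51A1 and SQLE, fell (-0.38, adjusted p = 0.00022), and CYB5B rose (0.18, adjusted p = 0.043) with a call lost in 9 of 11 alternatives. Fatty acid oxidation had 3 higher (25%) and 2 lower (16.7%) of 12, against 9.44% and 11.6% of all genes, with a median of 0.07. CPT1A, the gate of fatty acids into mitochondria, fell (-0.65, adjusted p = 0.00029), as did ACADVL (-0.23, adjusted p = 0.020), while ACAA2 (0.53, adjusted p = 7.9e-06) and HADH (0.28, adjusted p = 0.031) were among those that rose. With the GC trend removed, the calls of ACADVL (-0.12, adjusted p = 0.29), HADH (0.20, adjusted p = 0.12) and GPAM (0.49, adjusted p = 0.055) were lost, and that of HADH also with the replicate block (adjusted p = 0.055). Among the genes named, leaving out 1 library ended the calls of ABCG1, PDSS1, GPAM, MARCHF6, CYB5B and HADH (OE-WT replicate 1), of ERLIN2, SP1, GPAM, CYB5B and ACADVL (OE-WT replicate 2), of GPAM, MARCHF6 and CYB5B (CTRL replicate 1) and of ERLIN2, MARCHF6, SP1, ELOVL7, CYB5B, ACADVL and HADH (CTRL replicate 2), at adjusted p from 0.050 to 0.22.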

How the data were processed

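Poly(A)-selected, strand-specific libraries were made from OE-WT and CTRL DLD1 cells, 2 per group and 2 lanes per library per the labels. The study's methods give rRNA removal and 3 replicates. After trimming with Cutadapt and alignment by HISAT2 to GRCh38, the authors deposited raw counts per gene, 1 column per library. The methods name HTSeq for counting, and the submitters' processing notes name HISAT2 2.2.1, featureCounts 2.0.0 and DESeq2 1.34.0. The annotation release and strand setting are not given in the sources used here.

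Symbols came from GENCODE release 44 on GRCh38 (57532 of 58302 identifiers). Genes passing edgeR's filter by group (minimum count 10) numbered 14133. They were scaled by TMM and tested with edgeR 4.0.16 (quasi-likelihood, no replicate block, Benjamini-Hochberg adjustment) in R 4.3.3. The standard error is the log2 fold change over the square root of F. CPM use TMM-scaled library sizes, and levels per kb the MANE Select transcript length. Alternatives were RLE factors, library size only, DESeq2 1.42.0, 2 filters, a replicate block, each library left out and removal of a GC trend (lowess, span 0.3). Figures used Python 3.11.15 with matplotlib 3.10.9.

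The 31 genes and the lists were chosen with earlier results of these data known. All 31 were named, with values per library for genes with an adjusted p below 0.05 and for the regulators, and other values where a role needed them. TRMT6 and TRMT61A checked the labels. At most 5 called genes per further list were named, by size of change. Promoters with TCACNCCAC were shown. Where a gene outside this rule is named, the text says so. Same-numbered libraries did not deviate together (correlation -0.06).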

Additional observations from a re-analysis of the deposited data

How the results depend on the processing

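With 2 libraries per group, precision followed depth: CYP51A1, FADS1, ELOVL6 and PMVK, with 54 to 130 counts per library, had standard errors from 0.16 to 0.20, and the other 27 genes from 0.06 to 0.11. Of the 31 genes, 6 were called higher with the GC trend removed and 2 lower by DESeq2, and with each library left out from 3 to 6 were higher and from 2 to 6 lower. Without OE-WT replicate 1, 6 were higher and 2 lower. The replicate numbers share no stated batch, and the replicate block gave 3 higher and 4 lower, and 1145 and 1513 over all genes. Over all genes, library size only gave 733 higher and 2451 lower in place of 1334 and 1642, so that the higher share of calls moved from 44.8% to 23.0%, and the median log2 fold change moved to -0.08. DESeq2 gave 522 and 855, removal of the GC trend gave 1390 and 1454, and no filter beyond 1 count gave 844 higher. Leaving out each library gave from 780 to 1209 higher, with 817 without OE-WT replicate 1 and 780 without CTRL replicate 1, and from 1143 to 1577 lower. At the study's thresholds (127 and 318), DESeq2 gave 78 and 210, no filter beyond 1 count 236 and 502, at least 10 counts in every library 66 and 150, and the left-out fits from 148 to 182 and from 268 to 401. None of the 31 genes passed those thresholds in any alternative. Of the 77 further genes, 4 were called higher with library size only, 2 by DESeq2 and 4 with no filter beyond 1 count, and 9 lower by DESeq2, with from 5 to 6 and from 15 to 22 on leaving out each library (15 lower without CTRL replicate 1 and 5 higher without OE-WT replicate 1, OE-WT replicate 2 or CTRL replicate 2). With library size only, log2 ratios of summed CPM were -0.11 for all 31 genes, 0.14 for the mevalonate arm, -0.13 for squalene to lanosterol, -0.25 for the regulators and -0.086 for fatty acid genes. Uncalled genes that changed sign were FDPS (-0.071 with library size only, -8.2e-05 with no filter), FDFT1 (-0.081, -0.0094 and, with the GC trend removed, -0.036), EBP (-0.063 with library size only), DHCR7 (-0.031 with library size only) and SREBF2 (0.022 with the GC trend removed). With each library left out, values ran from -0.051 to 0.077 for FDPS, -0.064 to 0.071 for FDFT1, -0.13 to 0.073 for CYP51A1, -0.045 to 0.089 for EBP, -0.11 to 0.090 for SC5D, -0.013 to 0.12 for DHCR7, -0.0077 to 0.26 for INSIG1, -0.12 to 0.0044 for ACSS2, -0.095 to 0.053 for ACACA and -0.21 to 0.14 for ELOVL6. The causes were not tested.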
